A study of Homo sapiens with 4 samples.

Results

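The genes described here encode the machinery that carries new proteins into the endoplasmic reticulum (ER), folds and glycosylates them, and senses unfolded protein. The list holds 44 genes chosen by name, with earlier results of these data known, in 6 groups by role. These are 10 of the translocon, 4 of signal recognition and 12 chaperones. The rest are 5 disulfide isomerases and oxidases, 6 of glycosylation (the oligosaccharyl transferase and ALG8) and 7 sensors of unfolded protein with their targets. Of these, 42 were measured, among 9193 genes measured in all. The probe annotation used here named no probe set for SEC61G, a small subunit of the translocation channel, or for DNAJB11, a co-chaperone, so neither was analysed.

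The cells were LAPC4, a human prostate cancer line that is established in culture and responds to androgen, and 4 Affymetrix expression arrays were run. Cells infected with a lentiviral shRNA against both β-TrCP isoforms, the substrate-binding subunits of an SCF ubiquitin ligase, were grown in charcoal stripped serum (CSS), which is depleted of androgens, or in fetal calf serum (FCS). Control cells infected with a GFP vector were grown in the same media, and each of the 4 conditions has 1 array. All cells were treated for 72 hours in medium with 10% serum, and the FCS medium, not the CSS medium, also held 100 pM methyltrienolone, a synthetic androgen. The combination of shRNA and CSS is called the combined treatment below. The labels give a GFP vector for the control, whereas the study's text describes the inducible shRNA vector without doxycycline in one place and the vector alone, which carries eGFP, in another. A change given for the shRNA therefore cannot be told apart from one of doxycycline or of the vector.

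Proteins bound for secretion or for membranes carry a signal sequence, which the signal recognition particle binds as it leaves the ribosome and brings to the SEC61 channel of the ER. Inside, chaperones of the HSP70 and HSP90 families and the lectins calnexin and calreticulin hold the chain, disulfide isomerases pair its cysteines, and the oligosaccharyl transferase adds N-linked glycans. When unfolded protein accumulates, sensors in the ER membrane, among them ERN1 (IRE1) and ATF6, switch on a shared set of genes. Promoter elements through which ATF6 and XBP1 act are known as ER stress elements (ERSE and ERSE-II). Prostate luminal cells secrete much protein, and their secretory machinery is known to respond to androgen.

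These elements are shown as a description of the members' promoters. The list was chosen by name and includes genes known to respond to unfolded protein. The shares below are thus not independent of that choice. Promoter sequences are from RefSeq (GRCh38.p14), cover 250 bases before to 50 bases after each gene start, and were at hand for 42 of the 44 members. The promoter table held no entry for PDIA3 and RPN1. The ERSE was searched as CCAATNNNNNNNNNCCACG on both strands and was found in the promoters of 7 members (16.7% of 42), SERP1, HSPA5, HSP90B1, CALR, CANX, PDIA6 and XBP1. Of all 27305 genes in the table, 0.0916% have a promoter that holds it, and of all 35116 promoters 0.0769%. In the stretches of 4 of these members, printed on the gene's strand, capitals mark the CCAAT and CCACG blocks or, where the element runs the other way, their complements.
HSPA5 (chr9:125241385-125241415, minus strand): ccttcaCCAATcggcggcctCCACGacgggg
XBP1 (chr22:28800597-28800627, minus strand): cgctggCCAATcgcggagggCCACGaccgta
PDIA6 (chr2:10812847-10812877, minus strand): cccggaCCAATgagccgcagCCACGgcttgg
CALR (chr19:12938378-12938408, plus strand): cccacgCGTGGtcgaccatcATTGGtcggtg

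The ERSE-II, searched as ATTGGNCCACG on both strands, was found in 3 members (7.14% of 42), HYOU1, SDF2L1 and HERPUD1, in 0.0696% of all genes and in 0.0541% of all promoters. Capitals mark its blocks in HERPUD1 and SDF2L1.
HERPUD1 (chr16:56932019-56932041, plus strand): acgccgATTGGgCCACGttggga
SDF2L1 (chr22:21642108-21642130, plus strand): cggaagCGTGGaCCAATcaaaac

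The core of the unfolded protein response element, TGACGTG on either strand, was found in 5 members (11.9% of 42), SEC62, SSR3, SSR4, HYOU1 and DNAJC10, in 2.40% of all genes and in 1.97% of all promoters. It is shown in capitals for the 3 of them whose signals are described in most detail.
SSR3 (chr3:156554153-156554171, minus strand): aacagcCACGTCAgcaagg
SEC62 (chr3:169966785-169966803, plus strand): tcgctcCACGTCAgaggga
DNAJC10 (chr2:182716127-182716145, plus strand): caccgcCACGTCAacctaa

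HYOU1 held 2 copies of the ERSE-II, and the core element overlaps the first. Capitals mark all 3 in the stretch that spans them.
HYOU1 (chr11:119057268-119057399, minus strand): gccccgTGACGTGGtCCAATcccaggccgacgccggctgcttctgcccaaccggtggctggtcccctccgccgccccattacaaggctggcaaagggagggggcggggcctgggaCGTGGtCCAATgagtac
A match describes the letters of a promoter and does not show that a factor bound there.

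Across the 4 arrays, values are normalized log2 signals, and a floor was set at a signal of 20 (log2 4.32). With 1 array a condition, a change between 2 arrays has neither replicates nor a p-value. A local spread is given in their place, which describes how far probe sets of like brightness differed between the 2 arrays. It was taken over the 1000 probe sets closest to the gene's own in brightness, as 1.48 times the median absolute deviation of their log2 changes. A change of at least 1.5-fold (0.585 on the log2 scale) is counted as a difference in size. In RNA of a whole culture, fewer cells of a type and less RNA per cell cannot be told apart.

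The knockdown was visible in its target. FBXW11 (β-TrCP2) had a normalized log2 signal of 4.68 with the combined treatment, 5.02 with the shRNA in FCS, 8.19 in CSS control cells and 8.02 in control cells in FCS. BTRC (β-TrCP1) was at the floor on both shRNA arrays and dim, at 4.64 and 4.50, on the control arrays in CSS and FCS. The combined-treatment array differed most from the rest: its correlation with the other arrays was 0.946 to 0.948 across probe sets, which are not replicates, and theirs with each other was 0.985 or more. Its deposited values had an interquartile range of 2.07, against 2.69 to 2.74 on the other arrays. Of 10 markers of prostate luminal cells, 7 were measured, with a summed signal of 5950, 4965, 6770 and 5421 on the arrays of the combined treatment, shRNA in FCS, CSS control and control in FCS. Single markers moved more than this sum, such as KLK2 and KLK3, secreted proteases under androgen control. With the shRNA they changed by -1.23 and -0.98 in FCS and by -2.41 and -1.37 in CSS. In CSS control cells, in medium depleted of androgens, both were higher, by 0.70 and 0.73. The markers did not move together. With the shRNA in FCS 4 of the 7 were lower and 3 higher, and in CSS 5 were lower and 2 higher. HOXB13 changed by 0.20 in FCS and 0.63 in CSS, and EPCAM by 0.22 and 0.26. The 4 measured of 7 fibroblast markers summed to 130 with the combined treatment and to 91.9 to 94.3 elsewhere, and the 3 measured of 7 leukocyte markers to 71.8 and 60, which is the floor. The 3′ minus 5′ log2 signal of ACTB, a sign of RNA integrity, was 1.03 on the CSS control array and 0.41 to 0.45 on the other 3. The part of these differences in the members' values was not tested.

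**Figure D1:**
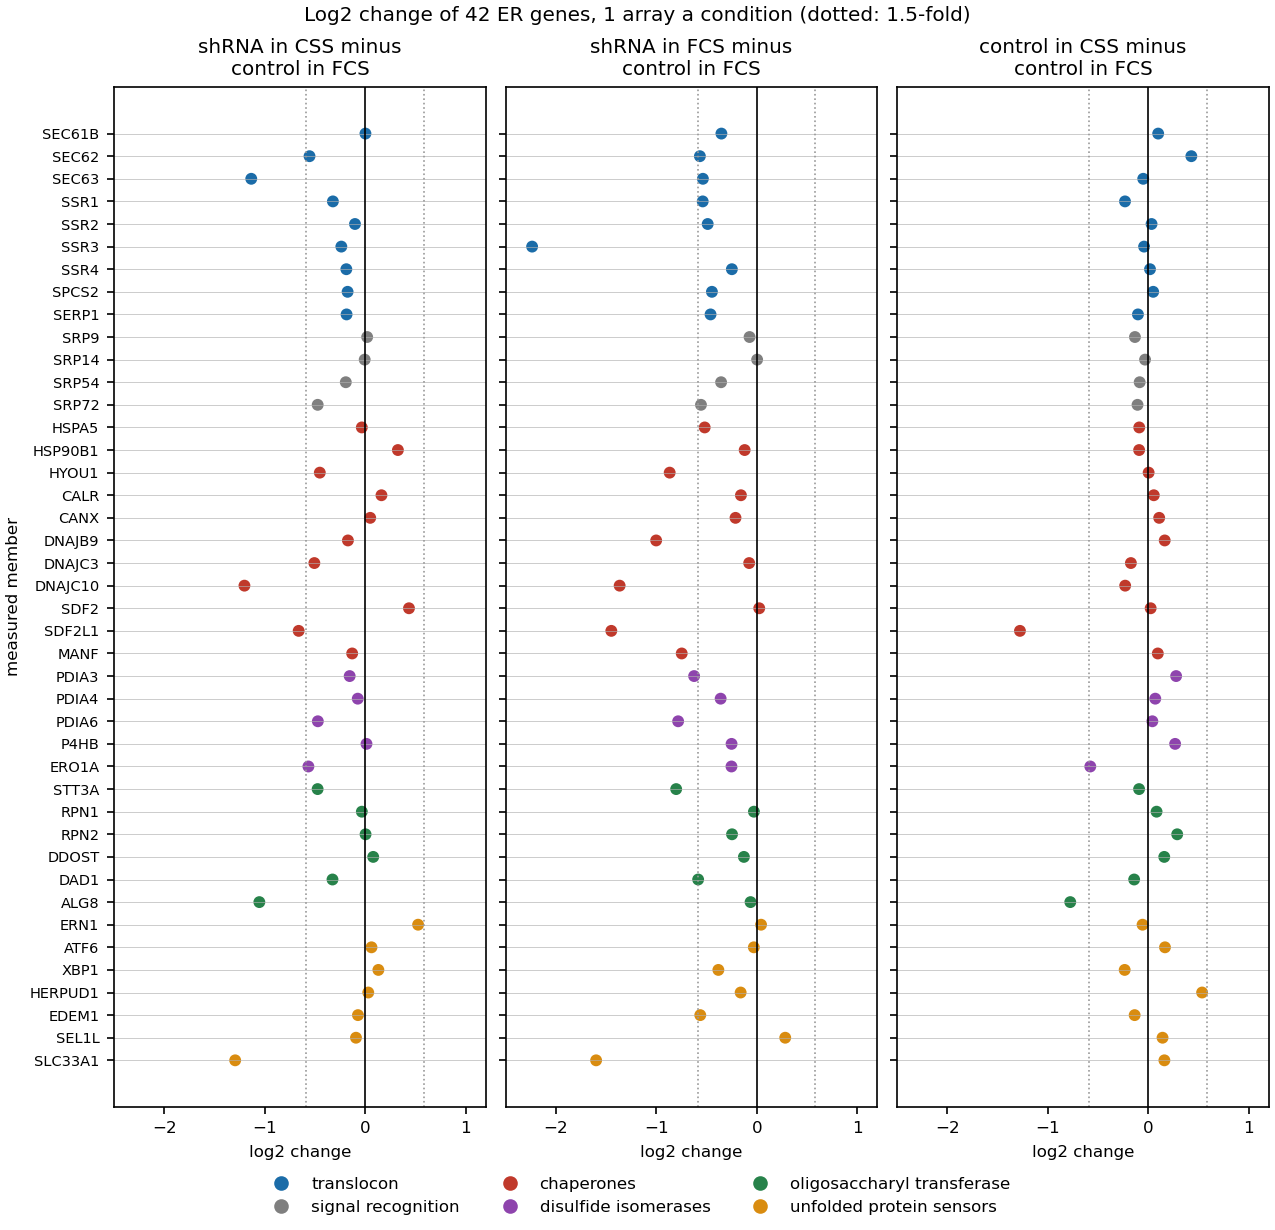
Log2 change of each of the 42 measured members (rows, coloured by role) with the combined treatment, with the shRNA in FCS and in CSS control cells, each minus the control in FCS, with 1 array a condition. Dotted lines mark 1.5-fold, and the changes of SEC63 with the combined treatment and of ERN1 in CSS are bounds set by the floor. In the middle panel 38 members lie left of 0 and 10 lie past the left dotted line, while in the right panel 20 lie left of 0.

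With the shRNA in FCS, the ER genes were lower nearly throughout, in every role. Of 42 members 38 were lower than in control cells in FCS, where 50% of all genes were lower, and 10 were at least 1.5-fold lower, where 3.35% of all genes were. None was at least 1.5-fold higher, where 3.21% of all genes were. The median log2 change was -0.37 for the members and 0.00 for all genes. Since the members were chosen with earlier results of these data known, this comparison with all genes cannot be taken as independent of that choice. The 10 were SSR3, SLC33A1, SDF2L1, DNAJC10, DNAJB9, HYOU1, STT3A, PDIA6, MANF and PDIA3, with DAD1 (-0.58) and SEC62 (-0.57) just short of the 1.5-fold limit. Lower by more than their local spread were 27 members, against 19.1% of all genes, and higher by more than it were 0. Among the 29 members with a mean log2 signal of at least 8, 28 were lower (48.3% of all genes this bright) and 7 were at least 1.5-fold lower (4.88%). The 4 members that were not lower were SRP14 (0.00), SDF2 (0.03), ERN1 (0.04) and SEL1L (0.28).

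In CSS control cells the list as a whole was level with the control in FCS. Lower were 20 members, where 46.7% of all genes were lower, and the median log2 change was 0.01 for members and 0.02 for all genes. SDF2L1 and ALG8 were at least 1.5-fold lower, where 2.23% of all genes were, and no member was at least 1.5-fold higher, where 2.46% of all genes were. The next largest changes were those of ERO1A (-0.58), an oxidase of the disulfide pathway, and HERPUD1 (0.54), a target of the unfolded protein response. The CSS control array was also the one with the high 3′ minus 5′ signal of ACTB, and its part in these values was not tested.

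With the combined treatment, the members lay between these. Lower than in control cells in FCS were 29 of 42, where 47.5% of all genes were lower, and the median was -0.14 against 0.03 for all genes. At least 1.5-fold lower were 5 members, SLC33A1, DNAJC10, SEC63, ALG8 and SDF2L1, which is under the background of 16.3% of all genes, and at least 1.5-fold higher were 0, where 18.2% of all genes were. All genes spread more widely in comparisons with this array. The count of lower members depended on scaling: it was 40 with the values as deposited and 27 with arrays set to a common median. The median of all genes shifted as well, to -0.16 and 0.11, and the shares of all genes lower were not computed there. These 3 comparisons share the control array in FCS.

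Against the CSS control, an array that the comparison in FCS did not use, the shRNA in CSS gave lower values for 31 members, where 49.3% of all genes were lower, with a median of -0.17 against 0.01 for all genes. At least 1.5-fold lower were SEC62, SEC63, DNAJC10 and SLC33A1, where 16.4% of all genes were, and SDF2L1 was at least 1.5-fold higher, where 16.7% of all genes were. In both sera 30 members were lower with the shRNA, where 30.6% of all genes were, and DNAJC10 and SLC33A1 were at least 1.5-fold lower in both, where 1.66% of all genes were. Of the 10 members at least 1.5-fold lower in FCS, 9 were lower in CSS as well, and SDF2L1 was higher there. With arrays set to a common median, 23 members were lower in CSS and the median was -0.021 against 0.08 for all genes. With the deposited values 38 were lower, with a median of -0.32 against -0.20 for all genes. The counts thus moved with a shift of all genes, whose shares lower were not computed under these scalings.

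**Figure D2:**
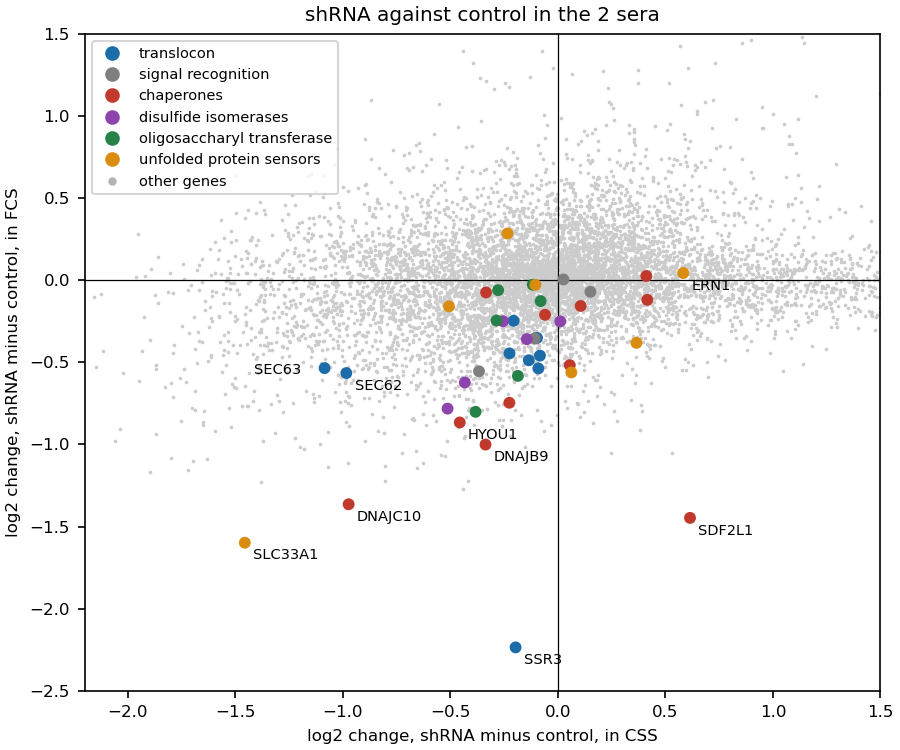
Log2 change with the shRNA against control in CSS (horizontal axis) and in FCS (vertical axis) for the 42 members, coloured by role, and for the other genes in grey, of which some lie beyond the axes. The 2 changes share no array. Most members lie under the horizontal line, DNAJC10 and SLC33A1 lie at the lower left, and SSR3 and SDF2L1 are low on the vertical axis alone.

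Within shRNA cells, CSS gave higher values than FCS for 35 members and lower values for 7, where 47.9% of all genes were lower. At least 1.5-fold higher were SSR3, DNAJB9, SDF2L1 and MANF, where 17.4% of all genes were, and at least 1.5-fold lower were ALG8 and SEC63, where 16% of all genes were. The median was 0.27 against 0.03 for all genes. This comparison shares the array of shRNA in FCS with the one above, so the low values on that array enter both. The count of lower members also rests on scaling, since with the deposited values it was 18. The members' median was then 0.058 against -0.19 for all genes, so all genes moved with the scaling as well. The share of all genes lower was not computed for that setting. The array of shRNA in FCS was the lowest of the 4 for 32 members (76.2%) and for 27.9% of all genes. With the deposited values it was the lowest for 22 members (52.4%) and for 27.2% of all genes. The array of the combined treatment was then the lowest for 17 members (40.5%) and for 52.3% of all genes. With a common median the array of shRNA in FCS was the lowest for 31 members and for 32.85% of all genes. The number of members higher in CSS in both cell populations was 20, where 28.9% of all genes were, and ALG8 alone was at least 1.5-fold lower in CSS in both, where 1.08% of all genes were.

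All 9 measured genes of the translocon group were lower with the shRNA in FCS, with a median log2 change of -0.49. SSR3, a subunit of the signal sequence receptor that sits beside the channel, had a log2 signal of 8.48 with the combined treatment, 6.49 with the shRNA in FCS, 8.68 in CSS control cells and 8.72 in control cells in FCS. It was thus 4.71-fold lower on the single array of shRNA in FCS (local spread 0.34), the largest change of any member, while the other 3 arrays lay within 0.24 of each other. A single probe set measured it, so no other probe set was at hand as a check. The other subunits of the same complex were also lowest on that array, by less: SSR1 by -0.54, SSR2 by -0.49 and SSR4 by -0.25 against the control in FCS. For SSR4 the margin was small, at 10.85 against 10.91 with the combined treatment. With the deposited values SSR4 was lower with the combined treatment than with the shRNA in FCS (-0.12). SSR1 had signals of 10.48, 10.26, 10.57 and 10.80 in the same order of arrays. All 4 of its probe sets were lower with the shRNA in FCS than in the control in FCS, but that array was not the lowest for each. A dimmer probe set was lowest with the combined treatment (7.35 against 7.62), and another in CSS control cells (8.28 against 8.35).

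SEC62 and SEC63, membrane proteins that work with the channel on chains released from the ribosome, had a different pattern, with both shRNA arrays low. SEC62 had a log2 signal of 7.61 with the combined treatment, 7.60 with the shRNA in FCS, 8.59 in CSS control cells and 8.16 in control cells in FCS. It was 1.98-fold lower with the shRNA in CSS (local spread 0.39) and 1.48-fold lower in FCS (0.34), and its second probe set was lower in FCS by a like amount. SEC63 was dim, at the floor with the combined treatment and at 4.92 with the shRNA in FCS, 5.41 in CSS control cells and 5.46 in control cells in FCS. It was at least 2.12-fold lower with the shRNA in CSS, a bound close to its local spread (0.93), and 1.45-fold lower in FCS (0.20). The rest of the group was bright. SEC61B, the β subunit of the channel, SPCS2 of the signal peptidase and SERP1, which is thought to stabilise the translocon under stress, changed by -0.35, -0.45 and -0.46 with the shRNA in FCS.

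Of the 4 genes of the signal recognition particle, 3 were lower with the shRNA in FCS (median -0.21), and none reached 1.5-fold in any comparison by its brightest probe set. SRP14 lay between 10.85 and 10.89 on all 4 arrays. SRP9, which pairs with it at the Alu end of the particle's RNA, had log2 signals of 10.89 with the combined treatment, 10.80 with the shRNA in FCS, 10.74 in CSS control cells and 10.87 in control cells in FCS, a range inside its local spread (0.20 to 0.26). SRP54, which binds the signal sequence, had 8.94, 8.78, 9.05 and 9.13 on the same arrays, and its change with the shRNA in FCS (-0.35) was close to its local spread (0.31). SRP72, a subunit that binds the RNA with SRP68, changed most. Its signal was 9.49 with the combined treatment, 9.41 with the shRNA in FCS, 9.86 in CSS control cells and 9.97 in control cells in FCS, so that both shRNA arrays lay under both control arrays, and its 5 probe sets were all lower with the shRNA, by -0.94 to -0.54 in FCS and by -1.53 to -0.23 in CSS.

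Among the 11 measured chaperones, 10 were lower with the shRNA in FCS (median -0.52) and 5 of them by at least 1.5-fold. HSPA5 (BiP), the HSP70 of the ER and the usual gauge of ER stress, had a log2 signal of 11.22 with the combined treatment, 10.74 with the shRNA in FCS, 11.16 in CSS control cells and 11.25 in control cells in FCS. It was 1.43-fold lower on the array of shRNA in FCS (local spread 0.20), and the other 3 arrays were level. HYOU1, a nucleotide exchange factor of BiP, had 9.75, 9.33, 10.20 and 10.20 in the same order of arrays. Both shRNA arrays lay under both controls, 1.82-fold in FCS (0.28) and 1.37-fold in CSS (0.25).

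Co-chaperones with J domains, which set the ATPase of BiP in motion, differed in pattern. DNAJB9 (ERdj4) had a log2 signal of 8.67 with the combined treatment, 7.84 with the shRNA in FCS, 9.01 in CSS control cells and 8.85 in control cells in FCS. It was 2.00-fold lower with the shRNA in FCS (local spread 0.33), and at its spread in CSS (-0.34, spread 0.34). Its dimmer probe set, at 4.97, 5.21, 6.10 and 5.88 in the same order of arrays, was low on both shRNA arrays, by -0.67 in FCS and by -1.12 in CSS. DNAJC10 (ERdj5), a reductase that helps to clear misfolded protein, was low on both shRNA arrays, at 6.08 with the combined treatment and 5.92 with the shRNA in FCS, against 7.06 in CSS control cells and 7.28 in control cells in FCS. It was 2.57-fold lower with the shRNA in FCS (0.30) and 1.96-fold lower in CSS (0.66). Its second probe set gave -1.34 and -1.03. DNAJC3 (P58IPK) was near the floor, at 4.43, 4.86, 4.76 and 4.93, and its changes in the comparisons with the combined-treatment array lay within their spread (0.84 to 0.86).

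SDF2L1, an ER protein that forms complexes with chaperones and co-chaperones, was the member whose changes crossed. Its log2 signal was 7.56 with the combined treatment, 6.77 with the shRNA in FCS, 6.94 in CSS control cells and 8.22 in control cells in FCS. Each single treatment was lower than the control in FCS, 2.73-fold for the shRNA (local spread 0.33) and 2.42-fold for CSS (0.29), and the combined treatment lay above both. Its change with the shRNA in CSS was 0.61 (0.45), and 0.08 with the deposited values. It too had a single probe set. MANF, a secreted and ER-resident factor that binds BiP, had signals of 10.47, 9.85, 10.69 and 10.60 in the same order of arrays and was 1.68-fold lower with the shRNA in FCS (0.25), with the other arrays near each other. The large chaperones moved less: HSP90B1 (GRP94), CALR and CANX changed by -0.12, -0.16 and -0.21 with the shRNA in FCS, the first 2 within their spread. The brightest probe sets of HSP90B1, CALR and RPN2 are of the type marked as liable to bind related transcripts, and their values are less certain.

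**Figure D3:**
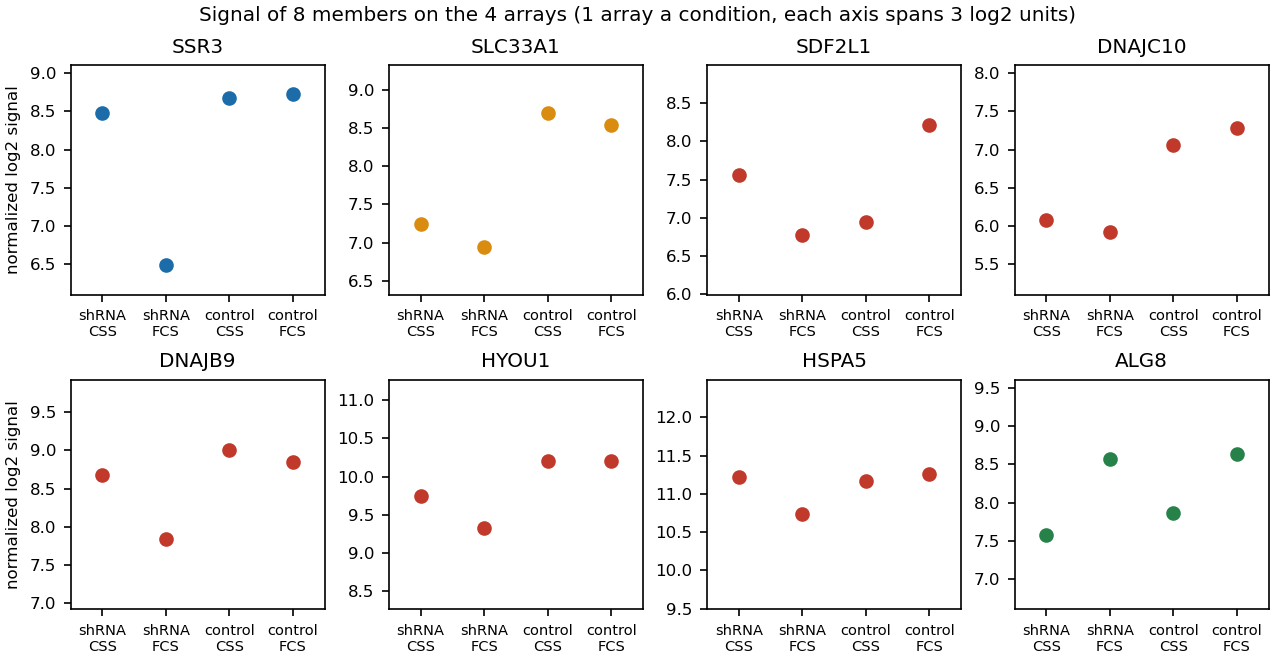
Normalized log2 signal of 8 members on the 4 arrays, 1 array a condition, on vertical axes that all span 3 log2 units. SSR3, DNAJB9 and HSPA5 are low on the array of shRNA in FCS, SLC33A1, DNAJC10 and HYOU1 on both shRNA arrays and ALG8 on both CSS arrays, while SDF2L1 is highest in the control in FCS.

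All 5 disulfide isomerases and oxidases were lower with the shRNA in FCS (median -0.36), and PDIA6 and PDIA3 were at least 1.5-fold lower. PDIA6, an isomerase that associates with BiP, had a log2 signal of 9.82 with the combined treatment, 9.51 with the shRNA in FCS, 10.33 in CSS control cells and 10.29 in control cells in FCS. Both shRNA arrays lay under both controls, 1.72-fold in FCS (local spread 0.28) and 1.43-fold in CSS (0.25), and all 4 probe sets were lower in FCS. PDIA3 (ERp57), which works on glycoproteins with calnexin and calreticulin, had 10.58, 10.11, 11.01 and 10.74 in the same order of arrays. It was 1.54-fold lower with the shRNA in FCS (0.24) and 1.35-fold lower in CSS (0.21). ERO1A, the oxidase that recharges the isomerases, followed the serum in control cells, with 6.22 with the combined treatment, 6.53 with the shRNA in FCS, 6.20 in CSS control cells and 6.78 in control cells in FCS. It was 1.49-fold lower in CSS in control cells (0.28), and by -0.31 in shRNA cells, within the spread there (0.74). P4HB and PDIA4 changed by -0.25 and -0.36 with the shRNA in FCS.

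All 6 glycosylation genes were lower with the shRNA in FCS (median -0.19), of which STT3A and DAD1 by more than their local spread, and ALG8 was lower in CSS. ALG8, a glucosyltransferase that adds a glucose to the lipid-linked glycan, had a log2 signal of 7.58 with the combined treatment and 8.57 with the shRNA in FCS. It had 7.86 in CSS control cells and 8.64 in control cells in FCS. Both CSS arrays lay under both FCS arrays, 1.99-fold in shRNA cells (local spread 0.39) and 1.71-fold in control cells (0.32), 2 comparisons that share no array. STT3A, a catalytic subunit of the oligosaccharyl transferase, followed the shRNA. It had 9.60, 9.27, 9.98 and 10.07 in the same order of arrays, 1.74-fold lower in FCS (0.29) and 1.30-fold lower in CSS (0.26). DAD1, a small subunit, had 10.36, 10.11, 10.55 and 10.69, and was also lower with the shRNA in FCS by more than its spread (-0.58, spread 0.25). RPN1, RPN2 and DDOST, the other subunits measured, changed by -0.03, -0.25 and -0.13 there, all within their spread.

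Of the 7 sensors and their targets, 5 were lower with the shRNA in FCS (median -0.16), of which SLC33A1, EDEM1 and XBP1 were lower by more than their local spread. SLC33A1 encodes the acetyl-CoA transporter of the ER membrane, and had a log2 signal of 7.24 with the combined treatment, 6.94 with the shRNA in FCS, 8.70 in CSS control cells and 8.54 in control cells in FCS. It was 3.03-fold lower with the shRNA in FCS (local spread 0.34) and 2.74-fold lower in CSS (0.42). Its dimmer probe set, at 5.94, 5.86, 6.50 and 7.09, was lower in both sera too.

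XBP1, the transcription factor whose mRNA ERN1 splices, had a log2 signal of 7.94 with the combined treatment, 7.43 with the shRNA in FCS, 7.57 in CSS control cells and 7.81 in control cells in FCS. Its change of -0.38 with the shRNA in FCS exceeded its local spread (0.33) by little, and its change with the shRNA in CSS (0.37, spread 0.42) turned sign with the deposited values. The array does not tell spliced from unspliced XBP1. EDEM1, a lectin-like protein that marks misfolded glycoproteins for degradation, had 6.43, 5.94, 6.36 and 6.50 in the same order of arrays and was lowest with the shRNA in FCS (-0.56, spread 0.30). HERPUD1, a membrane protein of ER-associated degradation, was highest in CSS control cells, with 9.39 with the combined treatment, 9.20 with the shRNA in FCS, 9.90 in CSS control cells and 9.36 in control cells in FCS. ERN1 lay at or near the floor, at 4.90, 4.42, the floor and 4.38. ATF6 lay between 6.67 and 6.86 on all arrays, and SEL1L, a scaffold of the degradation complex, was the only member to be higher with the shRNA in FCS by more than 0.1 (0.28, spread 0.34), in each of its 4 probe sets.

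**Figure D4:**
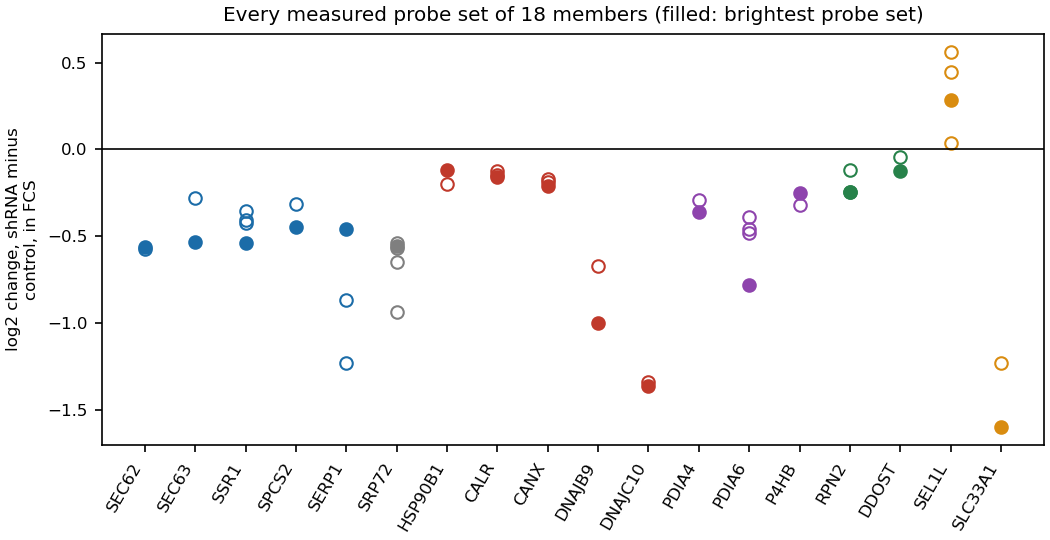
Log2 change with the shRNA in FCS for every measured probe set of the 18 members that have 2 or more (filled: brightest, coloured by role). For each of the 18 members all probe sets lie on the same side of 0, above it for SEL1L alone.

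Probe sets of a gene gave the same direction with the shRNA in FCS for 18 of the 18 members that have more than 1. The same held for 12 with the combined treatment, 11 in CSS control cells, 13 with the shRNA in CSS and 12 for CSS within shRNA cells. In no comparison did probe sets of a member differ in direction by 1.5-fold each. Of the 3 probe sets of SERP1 the dimmer 2 changed more, by -1.23 and -0.87 with the shRNA in FCS against -0.46 for the brightest. They were also lower with the shRNA in CSS, by -0.87 and -0.68, where the brightest changed by -0.08. For HSP90B1 the direction differed with the combined treatment, at 0.33 for its brightest probe set and -1.44 for the other. That dimmer probe set had a signal of 4.39 on the combined-treatment array, near the floor.

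The 10 members with an ERSE or ERSE-II in the promoter were all lower with the shRNA in FCS, with a median log2 change of -0.42 and a range of -1.45 to -0.12. Of the 30 measured members whose promoter holds neither, 26 were lower, with a median of -0.36. Within shRNA cells, CSS gave higher values than FCS for all 10 (median 0.37) and for 24 of the 30 (median 0.23), again on an array shared with the first comparison. With the deposited values CALR (-0.10) and HERPUD1 (-0.10) were lower in that second comparison. With the combined treatment 5 of the 10 were lower and 5 higher (median -0.002), and 22 of the 30 were lower (median -0.17). With the shRNA in CSS 5 of the 10 were lower and 5 higher (median -0.002), and 24 of the 30 were lower (median -0.20). Of all genes 47.5% and 49.3% were lower in these comparisons. The difference between members with and without an element was not tested.

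An additive model of serum and shRNA, fitted to all 4 arrays with limma, gave the only test that these arrays allow, with 1 residual degree of freedom. With the shRNA, 14 of 42 members were lower at a Benjamini-Hochberg adjusted p under 0.05 (limma), where 2.33% of 8858 genes were called lower. No member was higher, where 1.57% were called, and at an unadjusted p under 0.05, 23 were lower and 0 higher, where 5.83% of genes were lower and 6.75% higher. SLC33A1 led with a log2 effect of -1.53 ± 0.19 (SE, limma adjusted p = 1.48e-12), followed by SSR3 (-1.22 ± 0.17). PDIA6, HYOU1, PDIA3, STT3A, MANF, DNAJB9, SRP72, SEC62, DAD1, SSR2, SPCS2 and SSR1 were also called, with effects of -0.77 to -0.31. DNAJC10 had an effect of -1.17 ± 0.38 and a limma adjusted p of 0.0572.

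For serum, ALG8 was the only member called lower in CSS (-0.88 ± 0.17, limma adjusted p = 3.97e-05), where 1.39% of genes were called. Called higher were SSR3, PDIA3, MANF, DNAJB9 and HERPUD1, where 1.16% of genes were called. With CSS in shRNA cells, MANF changed by 0.62, DNAJB9 by 0.83, PDIA3 by 0.47 and HERPUD1 by 0.19. In control cells their changes were 0.10, 0.16, 0.28 and 0.54, those of MANF and DNAJB9 within their local spread (0.27 and 0.32). The effect of SSR3, 0.98 ± 0.17, averages 2.00 in shRNA cells and -0.04 in control cells, and its shRNA effect averages -2.24 in FCS and -0.20 in CSS. Variances in the model came wholly from the trend on mean signal. Departures from additivity, such as those of SSR3 (2.04), DNAJB9 (0.66) and MANF (0.52), thus did not enter the SE. Without that trend no member and no gene was called for either factor (lowest limma adjusted p 0.734 for the shRNA and 0.729 for serum). With the deposited values 8 members were called for the shRNA and 0 for serum, where 43 and 23 of 9193 genes were called.

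Of 84 other genes of the same pathway, listed by role with earlier results of these data known, 68 were measured. With the shRNA in FCS 55 were lower, where 50% of all genes were, and 15 were at least 1.5-fold lower, where 3.35% were. At least 1.5-fold higher were 2, where 3.21% of all genes were, and the median was -0.27. In CSS control cells 35 were lower (median -0.01), with the combined treatment 42 (median -0.12) and with the shRNA in CSS 40 (median -0.11). Of all genes 46.7%, 47.5% and 49.3% were lower in these comparisons. At least 1.5-fold lower with the shRNA in CSS were 16 of these genes (23.5%), against 4 of the 42 members (9.52%) and 16.4% of all genes. With the combined treatment 14 were (20.6%), against 5 members (11.9%) and 16.3% of all genes. For CSS within shRNA cells 25 of the 68 were lower (36.8%, median 0.10), against 7 members (16.7%, median 0.27) and 47.9% of all genes. The differences between the 2 lists were not tested.

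The largest decreases of this list with the combined treatment were those of TMX1, EDEM3, ALG6 and EIF2AK3. TMX1, a membrane-bound thioredoxin, had a log2 signal of 6.45 with the combined treatment, 7.58 with the shRNA in FCS, 7.74 in CSS control cells and 8.05 in control cells in FCS, and EDEM3, a mannosidase of degradation, had 5.19, 6.27, 6.34 and 6.73. Both were low on the array of the combined treatment alone. ALG6, the glucosyltransferase that acts before ALG8, had 6.14, 7.38, 6.91 and 7.57, so that, like ALG8, it was lower in CSS in both cell populations, by -1.24 in shRNA cells and -0.66 in control cells. EIF2AK3 (PERK), the third sensor of unfolded protein, had 5.67, 6.18, 7.19 and 7.07, with both shRNA arrays low.

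The largest increases were those of CHAC1, QSOX1, MOGS and DNAJB12. CHAC1, a glutathione-degrading enzyme induced through ATF4, had a log2 signal of 6.87 with the combined treatment, 6.88 with the shRNA in FCS, 6.66 in CSS control cells and 5.60 in control cells in FCS, so that the last array stood 1.06 or more below the others. QSOX1, a sulfhydryl oxidase, had 6.62, 6.00, 6.11 and 5.85. MOGS, the first glucosidase of glycan trimming, had 7.08, 6.01, 6.27 and 6.32, and DNAJB12, a membrane-anchored co-chaperone, had 8.03, 7.26, 7.22 and 7.35. These last 3 were highest on the array of the combined treatment.

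**Figure D5:**
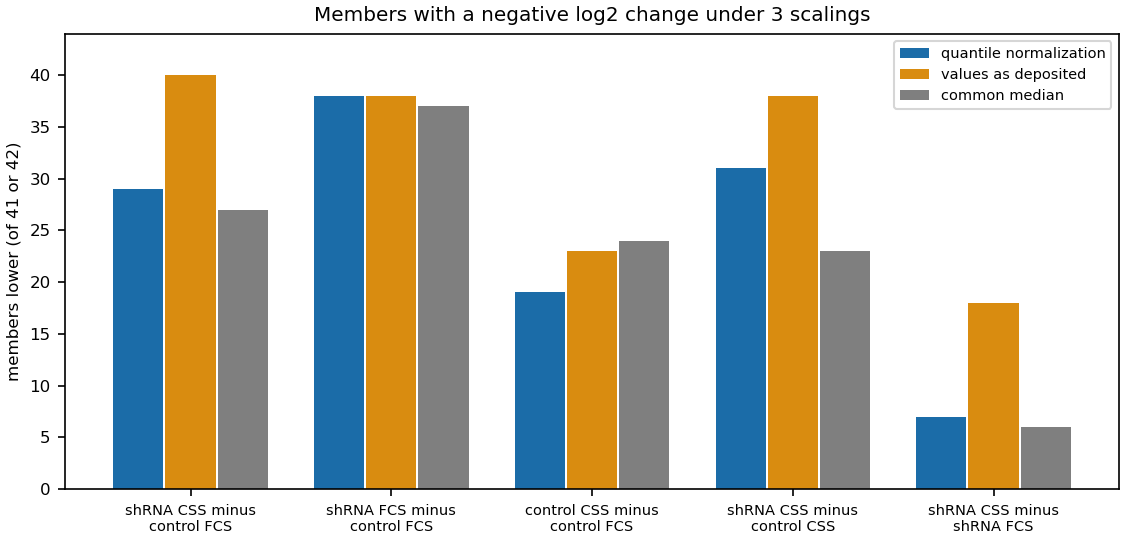
Number of members (of 41 or 42 with a value under every scaling) with a negative log2 change in each of the 5 comparisons, after quantile normalization, with the deposited values and with arrays set to a common median. ERN1 is left out of the 2 single treatments, where it has no value with a common median. For shRNA against control in FCS the counts are 38, 38 and 37, while with the combined treatment they are 29, 40 and 27.

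Scaling mattered where the array of the combined treatment entered. Against the control in FCS the median of all genes was 0.03 after quantile normalization, -0.16 with the deposited values and 0.11 with a common median. The sign of the change differed between the 3 scalings for 15 members with the combined treatment, 17 with the shRNA in CSS and 14 for CSS within shRNA cells. It did so for 5 members in CSS control cells, and with the shRNA in FCS for ATF6 alone (-0.03).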

How the data were processed

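The members and the lists of other pathway genes and cell markers were chosen with earlier results of these data known. The deposited values are on a log2 scale and cover 22277 probe sets. The authors state that MAS5 signals were selected (intensity of 20 or more and a present call), put on the log2 scale and quantile normalized. The table, however, was neither filtered nor equal in distribution between columns, so both steps were applied here, without present calls. Whether the values are MAS5 signals unchanged was not tested. Amounts of RNA per sample differ between the labels and the study's methods. The labels name no genome build, and symbols come from the platform annotation, updated through RefSeq gene identifiers (19070 probe sets with 1 gene, 1043 with several, 2164 with none).

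The 15678 probe sets that reached a signal of 20 on any array were quantile normalized, with lower values set to 20, and 73 of 76 probe sets of the members were among them. Each gene was represented by its brightest probe set. Where 1 of 2 arrays was at the floor, the fold is a bound, and where both were, none was given. Genes described with values on all arrays were HSPA5, XBP1, HERPUD1 and DNAJB9, the 3 members of each role with the largest combined change, each member past 1.5-fold in a comparison without the array of the combined treatment or past 2-fold in the combined change, and the 4 largest increases and decreases among the other pathway genes. SRP14, ATF6 and further members given by single values were named after their values were seen. Main effects were tested with limma 3.58.1 in R 4.3.3, with a trend on mean signal, after tests on simulated data. Python 3.11.15 with numpy 2.4.6 and pandas 2.3.3 served for the rest. The number of arrays limits the precision, besides the limits of scaling, floor and probe sets given with the results. The alternatives tried were the deposited values, a common median, normalization without the array of the combined treatment, other floors and filters, the mean over probe sets, a 2-fold rule and limma without the trend.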

Additional observations from a re-analysis of the deposited data

Results flagged for a closer look

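SDF2L1 stood out because its change ran in opposite directions in the groups compared. With the shRNA it was higher in CSS (0.61 on the log2 scale) and lower in FCS (-1.45), and with CSS it was higher in shRNA cells (0.78) and lower in control cells (-1.28). Both contrasts give the same difference of 2.06 on the log2 scale, against a local spread of 0.45. The difference was not tested, since each condition has 1 array, and a single probe set measured the gene.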

How the results depend on the processing

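No paired analysis was possible because each condition has 1 array and no replicate to leave out. Of 152 counts and medians recomputed, 123 stayed within 1.5 times the first value or, for medians, within 0.1, and 29 moved. Of 1509 recomputed changes of single members, 1454 stayed within the local spread, and 55 moved beyond it. Of those past 1.5-fold at first, 0 changed sign, while smaller changes did so in the numbers given above for the scalings. The cause was not tested unless the setting itself uses fewer genes or another limit.

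With the deposited values, members at least 1.5-fold lower with the combined treatment numbered 13 (27.8% of all genes) and those higher 1 (11.9%), with a median of -0.34 against -0.16 for all genes. Those lower with the shRNA in CSS numbered 13 (29.2% of all genes), with a median of -0.32 against -0.20, and for CSS within shRNA cells 1 was higher (11.9%), with a median of 0.058 against -0.19. With the deposited values the additive model called 8 members for the shRNA and 0 for serum, where 43 and 23 of 9193 genes were called. Without the trend it called 0 members and 0 genes for either factor. With a common median 1 member was at least 1.5-fold higher with the combined treatment, where 20.2% of all genes were. The median with the shRNA in CSS was then -0.021 against 0.08 for all genes. Without a floor 2 members were higher with the shRNA in CSS. With a floor of 100, 2 were lower with the shRNA in CSS and 1 for CSS within shRNA cells, which was also 1 with a minimum signal of 100. Shares of all genes were not computed without a floor, with a floor of 100 or with that minimum signal. Under the 2-fold rule, 5 members were lower with the shRNA in FCS (0.401% of all genes), 1 in CSS control cells (0.138%), 2 with the shRNA in CSS (6.74%) and 0 higher there (7.77%), and for CSS within shRNA cells 0 were lower (6.64%) and 1 higher (7.90%).

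Settings chosen after seeing the data gave the following. Among members with a mean log2 signal of at least 8, 1 was at least 1.5-fold lower with the combined treatment, 1 in CSS control cells, 0 with the shRNA in CSS (0 higher) and 1 for CSS within shRNA cells. Where all probe sets had to pass the limit, 1 was lower for CSS within shRNA cells. For these counts the shares of all genes were not computed. Dim members such as SEC63, ERN1 and DNAJC3 lie near the floor.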
